A study of Mus musculus with 100 samples.

Results

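One day after the right knee of MRL/MpJ mice had been injured, the uninjured contralateral knee was compared with knees of MRL/MpJ mice taken before any injury. The members are 9 of the 100 RNA-seq libraries of the study, chosen by their labels alone, with 5 contralateral joints at 1-day and 4 joints at 0-day of the same sequencing batch, and all 17310 genes of the count table were tested. MRL/MpJ is an inbred strain known for unusually complete wound closure and for resistance to post-traumatic osteoarthritis, and the comparison asks whether a joint that was not itself injured changed. Mice were 10 weeks old. At 1-day they had been anaesthetised with isoflurane, had received 1 compressive load of 10 to 12 N on the right tibia, which ruptures the anterior cruciate ligament, and had been given buprenorphine straight afterwards. Mice of 0-day were uninjured, and neither anaesthesia nor analgesia is described for them. The injury of the other knee, the anaesthetic, the analgesic and the day and hour of collection therefore cannot be told apart in this comparison, and the hour of collection is not given in the sources used here. Each library was made from a whole knee cut at the femoral and tibial ends with traces of soft tissue, so that cartilage, bone, marrow, synovium, ligament and some muscle were measured together. In such bulk samples, fewer cells of a type and less RNA per cell cannot be told apart. Injured MRL/MpJ joints at 1-day (5 libraries) and the same pair of contralateral and 0-day groups in C57BL/6J and STR/ort mice (5 and 4 libraries each) serve only to show where the MRL/MpJ contralateral joint differed. C57BL/6J is a common inbred strain and STR/ort develops osteoarthritis spontaneously.

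The 9 libraries held between 6182016 and 12741841 counts, and replicates 3 and 4 of 0-day were the shallowest with 6268533 and 6182016. The first principal component carried 17.8% of the variance of the 9 libraries and placed the 4 joints of 0-day between -32.7 and -0.716 and the 5 contralateral joints between 7.68 and 16.1. The 2 shallow libraries of 0-day lay farthest from the contralateral joints, and the part of depth in this order was not tested. Nothing in the labels ties a contralateral joint to the injured joint of the same animal. The p values measure a spread between libraries within groups. This spread was estimated from all 42 libraries of 0-day and 1-day in 3 strains, injured joints included, and not from the 9 libraries alone. Levels are CPM (counts scaled to a common library size) on a TMM scale, differences are log2 fold changes of 1-day minus 0-day with their standard error (SE), and adjusted p values come from edgeR's quasi-likelihood test with Benjamini-Hochberg adjustment over all genes. Calls needed an adjusted p under 0.05 together with a change of more than 1.5-fold in either direction.

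The circadian clock is a transcriptional feedback loop that runs in most cells of the body, chondrocytes and muscle fibres included. BMAL1, the product of Arntl, pairs with CLOCK or NPAS2 and switches on the Per and Cry genes, whose proteins then repress that pair. In a second loop, BMAL1 also switches on Nr1d1, whose product REV-ERB alpha represses Arntl, so that Arntl and the Per genes peak at different times of day. Per1 is, in addition, a direct target of the glucocorticoid receptor.

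In the contralateral joint, 20 genes were called, 11 higher and 9 lower. These are 0.116% of all genes tested, 0.0635% higher and 0.052% lower. Clock genes supplied 5 of the 20, with Per1, Per2 and Per3 higher and Nr1d1 and Arntl lower at 1-day. The remaining called genes were scattered over muscle, matrix and signalling functions, with Ankrd2 and Nmrk2 showing changes of over 1 log2 unit in opposite directions. Without the fold threshold, 47 genes had an adjusted p below 0.05, and 1650 genes (9.53%) had an unadjusted p below 0.05. The median log2 fold change over all genes was -0.0017. The count of called genes fell to 9 without replicate 4 of 0-day and to 12 without replicate 2 or replicate 3 of 0-day, and it was 56 when the 9 libraries were fitted on their own.

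**Figure D1:**
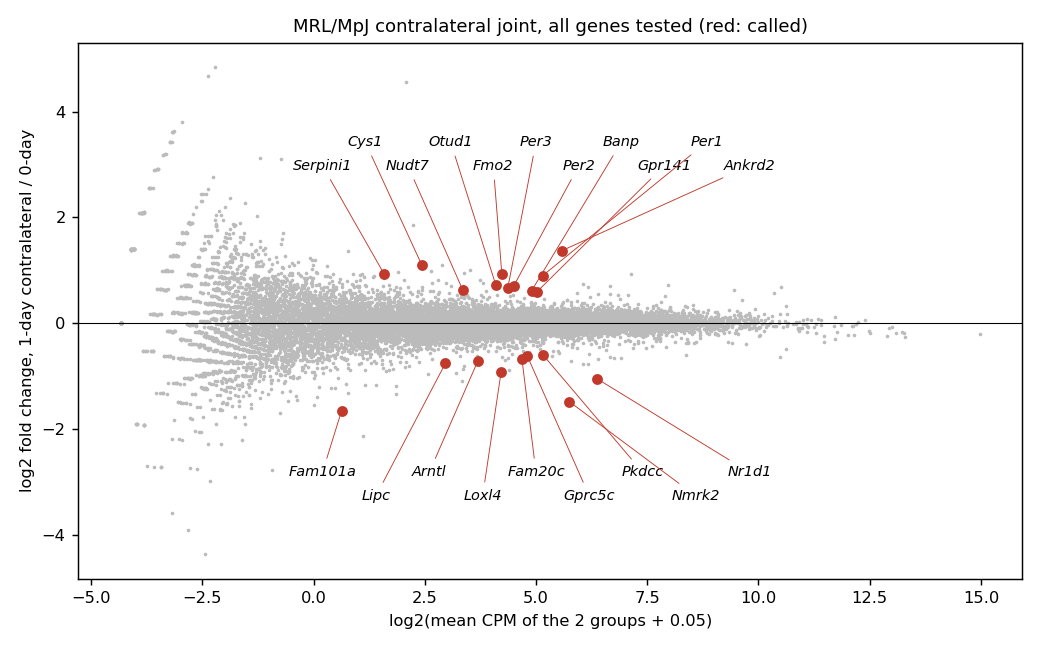
Log2 fold change of every gene in the MRL/MpJ contralateral joint (1-day minus 0-day, vertical axis) against its mean level (log2 of CPM plus a small constant, horizontal axis), with 1 point per gene. The 20 called genes, in red, sit away from the cloud of all genes, which is centred near a log2 fold change of 0.

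The 3 Period genes, repressors of the clock, were higher in every contralateral joint than in any joint of 0-day. Per2 (chr1:91415977-91459351, build GRCm38) was at 16.9, 18.9, 18.4 and 14.3 CPM at 0-day and at 30.8, 28.6, 24.6, 26.9 and 28.8 CPM in the contralateral joints. Its mean rose from 17.1 ± 2.08 (SD, n = 4) to 27.9 ± 2.32 CPM (SD, n = 5), a log2 fold change of 0.70 (SE 0.10, edgeR adjusted p = 0.000181). Per3 (chr4:150997018-151044707) was at 17.4, 16.1, 14.3 and 15.4 CPM at 0-day against 26.3, 24.5, 23.6, 27.1 and 25.2 CPM. The gap between the 2 groups of Per3 was wider than the spread within either, and its log2 fold change was 0.67 (SE 0.13, edgeR adjusted p = 0.01). For Per1 (chr11:69095108-69109965) the libraries of 0-day held 27.7, 26.4, 22.2 and 22.4 CPM and the contralateral joints 47.6, 42.2, 41.2, 44.4 and 56.6 CPM, and its log2 fold change was 0.90 (SE 0.20, edgeR adjusted p = 0.0375). Per1 thus had the largest fold of the 3 Period genes, and replicate 5 of the contralateral joints was its highest library. Per2 and Per3 were called with any 1 of the 9 libraries left out. Per1 was called in 2 of these 9 fits, those without replicate 2 or replicate 3 of the contralateral joints, with an edgeR adjusted p of up to 0.129 in the others. In a fit of the 9 libraries alone, its adjusted p was 0.000112, and in a fit of all 70 libraries of the batch it was not called.

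The opposite direction was seen in Nr1d1, the repressor of the second loop, and in Arntl, the gene it represses. Nr1d1 (chr11:98767932-98775377) was at 126, 110, 118 and 95.2 CPM at 0-day and at 62.5, 56.6, 54.1, 49.1 and 48.6 CPM in the contralateral joints. Its mean fell from 112 ± 12.9 (SD, n = 4) to 54.2 ± 5.75 CPM (SD, n = 5), with a log2 fold change of -1.06 (SE 0.15, edgeR adjusted p = 0.000181), and the call was made with any 1 of the 9 libraries left out. A stretch of 263 exonic bases of Nr1d1, or 8.55%, is shared with Thra, the thyroid hormone receptor alpha gene on the opposite strand, and the sources used here do not state whether reads were counted by strand. Thra itself went from 67.1 to 53.7 CPM (log2 fold change -0.32, SE 0.08, edgeR adjusted p = 0.0712). Arntl (chr7:113178471-113314126) held 15.4, 15.6, 17.4 and 15.8 CPM at 0-day against 8.41, 9.46, 9.52, 10.1 and 11.2 CPM in the contralateral joints. The highest contralateral joint lay well below the lowest joint of 0-day, and the log2 fold change of Arntl was -0.71 (SE 0.16, edgeR adjusted p = 0.0302). Arntl was called in 1 of the 9 fits with a library left out, the one without replicate 5 of the contralateral joints, with an adjusted p of up to 0.128 in the others, and its adjusted p in the fit of the 9 libraries alone was 0.00118.

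**Figure D2:**
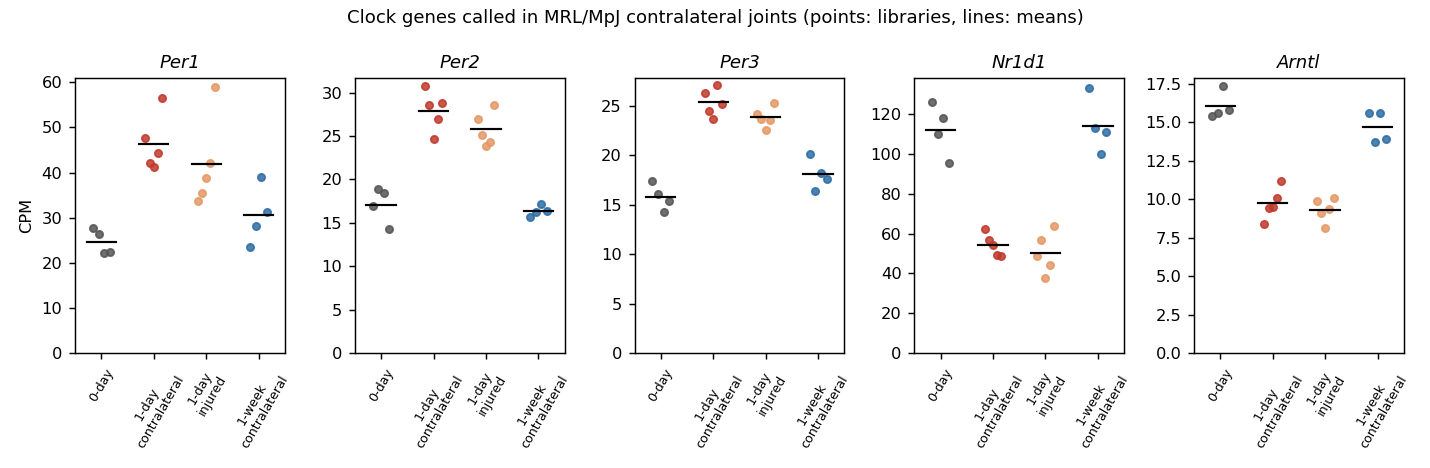
CPM of Per1, Per2, Per3, Nr1d1 and Arntl in MRL/MpJ joints at 0-day, contralateral at 1-day, injured at 1-day and contralateral at 1-week; points are libraries and lines are group means. In all 5 genes the contralateral joints of 1-day do not overlap the joints of 0-day, while the means of contralateral joints at 1-week (30.5, 16.4, 18.1, 114 and 14.7 CPM in the same order) lie near those of 0-day.

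The other genes of the clock list were read from the same fit. All 20 genes of the list were in the table, 5 were called (3 higher, 2 lower), and their median log2 fold change was 0.15 against 0 over all genes. The CPM ranges of both groups did not overlap for 10 of the 20, or 50%, while 5.34% of all genes had ranges that do not overlap. Among the genes that were not called, the PAR bZIP factors Dbp, Hlf and Tef, which are outputs of the clock that bind D-boxes, had log2 fold changes of 0.61 (SE 0.26), 0.56 (SE 0.16) and 0.37 (SE 0.15), with edgeR adjusted p values of 0.44, 0.164 and 0.394. In the fit of the 9 libraries alone Dbp was called, with an adjusted p of 0.049. Hlf went from 7.26, 7.75, 8.87 and 8.49 CPM to between 10.6 and 12.6 CPM, without overlap. Wee1, a clock-controlled cell cycle kinase, did not overlap either, from between 20.5 and 24.4 CPM to between 26.8 and 30.6 CPM (log2 fold change 0.31, SE 0.08, edgeR adjusted p = 0.0917). Npas2, which can stand in for Clock as the partner of BMAL1, had a mean of 3.61 CPM at 0-day and 1.54 CPM in the contralateral joints, with ranges that overlapped. The log2 fold change of Npas2 was -1.16 (SE 0.33, edgeR adjusted p = 0.142), and DESeq2, unlike edgeR, called it. Nr1d2, the paralogue of Nr1d1, did not follow it, with a log2 fold change of 0.30 (SE 0.14, edgeR adjusted p = 0.463). For Ciart, a clock repressor, the log2 fold change was 0.37 (SE 0.18, edgeR adjusted p = 0.505). Log2 fold changes of Cry1, Cry2, Rora, Nfil3, Clock, Bhlhe40 and Bhlhe41 lay between -0.18 for Bhlhe41 and 0.15 for Cry1, and none of these 7 was called.

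Because the clock genes that were called moved in opposite directions, the promoters of Per1, Per3 and Nr1d1 and a site just after a start of Arntl are shown with the letters known to be read by clock factors. Each promoter is the stretch of 250 bases before a transcript start in RefSeq (GRCm38.p6), which for Per1 and Arntl is 1 of 2 starts, both inside the gene span given above. It is printed 5′ to 3′ on the gene's strand, and capitals mark the motif. Per1 is at chr11:69098699-69098948 on the plus strand with an E-box, Per3 at chr4:151044666-151044915 on the minus strand with a pair of D-boxes, and Nr1d1 at chr11:98775378-98775627 on the minus strand with a noncanonical E-box. For Arntl the 23 bases of chr7:113207533-113207555 on the plus strand hold a RORE, the motif bound by REV-ERB alpha and the ROR activators. This site lies 31 bases after the second of the Arntl starts, and the window of the first holds none of the motifs searched. The window of the other Per1 start (upstream part chr11:69099902-69100151) holds none either.
Per1: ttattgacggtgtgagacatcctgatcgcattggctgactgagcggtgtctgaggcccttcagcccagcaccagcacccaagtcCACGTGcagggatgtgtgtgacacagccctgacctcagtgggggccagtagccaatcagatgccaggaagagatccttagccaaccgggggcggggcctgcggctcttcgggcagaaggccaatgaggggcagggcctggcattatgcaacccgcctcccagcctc
Per3: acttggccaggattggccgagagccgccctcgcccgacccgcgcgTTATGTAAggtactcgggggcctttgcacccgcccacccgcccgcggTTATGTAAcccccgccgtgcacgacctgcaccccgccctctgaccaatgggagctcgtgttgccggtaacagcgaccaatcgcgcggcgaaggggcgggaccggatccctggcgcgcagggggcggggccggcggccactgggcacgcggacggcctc
Nr1d1: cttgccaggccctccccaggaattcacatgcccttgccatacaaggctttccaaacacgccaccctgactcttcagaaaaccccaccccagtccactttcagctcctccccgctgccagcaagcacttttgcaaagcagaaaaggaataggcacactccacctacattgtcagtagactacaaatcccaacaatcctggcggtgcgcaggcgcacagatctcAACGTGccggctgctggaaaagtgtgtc
Arntl: gcagaaagTAGGTCAgggacgga
The motifs searched on both strands were the E-box CACGTG, bound by BMAL1 with CLOCK or NPAS2, its noncanonical form CACGTT, the D-box TTATGTAA, and the RORE TAGGTCA. Windows ran from 250 bases before to 50 bases after each start. A window was found for 16 of the 20 clock genes, and Per2 was not among them. E-boxes were in the windows of 5 of these 16 genes (Per1, Cry1, Tef, Bhlhe41 and Ciart) and of 8.09% of 27025 genes with a window. The noncanonical form was found in Cry1, Cry2 and Nr1d1 and in 5.44% of genes, the D-box in Per3 and in 1.11%, and the RORE in Arntl and Nfil3 and in 2.97%. Outside the clock list, the called genes Otud1 (E-box) and Fmo2 (noncanonical form) also held a motif. The E-box of Per1 starts 166 bases before that transcript start, the D-boxes of Per3 start 205 and 158 bases before it, and the motif of Nr1d1, read here as AACGTG, starts 28 bases before it. A match gives the letters only, and no binding was measured in these joints.

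Outside the clock, 8 genes were higher in the contralateral joint. Ankrd2, a stretch-responsive ankyrin repeat protein of muscle, had the largest fold of them. Ankrd2 (chr19:42035917-42045111) was at 35.3, 30.4, 18.4 and 20.2 CPM at 0-day and at 79.7, 84.6, 65.4, 64.5 and 50.9 CPM in the contralateral joints, so that the lowest contralateral joint was above the highest joint of 0-day. Its log2 fold change was 1.37 (SE 0.28, edgeR adjusted p = 0.0128), and the call was lost without replicate 3 or replicate 4 of 0-day, with adjusted p values of up to 0.0892. The call of Ankrd2 was also lost in the fit of 70 libraries. Fmo2 (chr1:162874317-162898758), which encodes a flavin-containing monooxygenase, went from 14.6, 12.5, 14.2 and 9.84 CPM to 25.2, 24.8, 26.5, 22.3 and 24.7 CPM. The contralateral joints were close to each other for Fmo2, with a mean of 24.7 ± 1.53 CPM (SD, n = 5), and its log2 fold change was 0.93 (SE 0.13, edgeR adjusted p = 0.000181). Banp, which encodes a nuclear protein that binds promoters, was at 23.9, 24, 22 and 24.3 CPM at 0-day and at 39.5, 32.3, 35.1, 31.7 and 41.7 CPM at 1-day (log2 fold change 0.61, SE 0.12, edgeR adjusted p = 0.0114). Serpini1, the gene of neuroserpin, an inhibitor of tissue plasminogen activator, went from between 1.7 and 2.29 CPM to between 3.3 and 4.42 CPM, with a log2 fold change of 0.93 (SE 0.18, edgeR adjusted p = 0.0114). In Nudt7, which encodes a peroxisomal enzyme that cleaves coenzyme A, values of 6.11 to 9.45 CPM were followed by 10.6 to 14.5 CPM, a log2 fold change of 0.63 (SE 0.13, edgeR adjusted p = 0.0118). These 3 genes did not overlap between the groups. Banp lost its call without replicate 3 of 0-day or replicate 5 of the contralateral joints (adjusted p up to 0.0511), Serpini1 without replicate 4 of 0-day (0.0568), and Nudt7 without replicate 4 of 0-day or replicate 1 of the contralateral joints (up to 0.0774).

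The 3 remaining higher genes were closer to the threshold. Cys1, which encodes the ciliary membrane protein cystin, was at 3.88, 2.81, 3.58 and 3.22 CPM at 0-day and at 8.84, 7.12, 6.59, 7.16 and 6.83 CPM at 1-day (log2 fold change 1.10, SE 0.25, edgeR adjusted p = 0.0411). Gpr141, an orphan G protein-coupled receptor, went from between 24.4 and 28.2 CPM to between 37.3 and 41.3 CPM, with a log2 fold change of 0.59 (SE 0.14, edgeR adjusted p = 0.0472). Otud1, a deubiquitinase, was at 13.9, 10.7, 16.5 and 10 CPM against 22.6, 28.7, 20.9, 16.3 and 17.8 CPM (log2 fold change 0.73, SE 0.17, edgeR adjusted p = 0.0411). It was the only one of the 20 called genes whose groups overlapped. Cys1 and Gpr141 were called in 0 of the 9 fits with a library left out (adjusted p up to 0.138 and 0.143), and Otud1 in 3, those without replicate 3 of 0-day or replicate 4 or 5 of the contralateral joints (up to 0.159 in the others). In the fit of the 9 libraries alone the adjusted p was 0.00118 for Cys1, 0.000237 for Gpr141 and 0.0336 for Otud1. None of these 3 genes was called in the fit of 70 libraries, and Otud1 was not called with housekeeping scaling either.

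Among the 7 lower genes outside the clock, Nmrk2 stood at the highest level at 0-day. Nmrk2 encodes nicotinamide riboside kinase 2, a muscle enzyme that makes NAD from nicotinamide riboside. Nmrk2 (chr10:81198170-81202265) held 70.4, 59.1, 101 and 86.2 CPM at 0-day and 39.3, 33.9, 26.4, 20 and 22 CPM in the contralateral joints, without overlap. Its mean fell from 79.2 ± 18.4 (SD, n = 4) to 28.3 ± 8.13 CPM (SD, n = 5), with a log2 fold change of -1.49 (SE 0.27, edgeR adjusted p = 0.00567), and the call was made with any 1 of the 9 libraries left out. It shares 270 exonic bases, or 14.6%, with Atcayos on the opposite strand, which stood at 8.22 and 9.79 CPM in the groups (log2 fold change 0.21, SE 0.27, edgeR adjusted p = 0.873). Fam101a, which encodes a regulator of filamin, had the largest fold of the lower genes at the lowest level, from 1.79, 3.26, 1.36 and 2.72 CPM to between 0.418 and 0.949 CPM (log2 fold change -1.66, SE 0.30, edgeR adjusted p = 0.00519).

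The other 5 lower genes encode proteins of matrix, lipid and signalling. Loxl4, a member of the lysyl oxidase family that cross-links collagen and elastin, was at 23, 22.2, 23.9 and 28.3 CPM at 0-day and at 12.9, 9.77, 10.4, 14.9 and 15.7 CPM at 1-day (log2 fold change -0.92, SE 0.18, edgeR adjusted p = 0.00958). Fam20c, the Golgi kinase that phosphorylates secreted proteins of bone and teeth, fell from between 27.1 and 35.8 CPM to between 13.6 and 23.3 CPM (log2 fold change -0.67, SE 0.13, edgeR adjusted p = 0.0118). Pkdcc, a secreted tyrosine kinase needed for long bone growth, was at 46.5, 43, 48.6 and 35.1 CPM against 33.3, 22.9, 30.8, 23.5 and 31.7 CPM (log2 fold change -0.61, SE 0.14, edgeR adjusted p = 0.0411). The groups of these 3 genes did not overlap. Log2 fold changes were below 0 for 15 of 16 cartilage markers (median -0.38) and 12 of 12 osteoblast and osteocyte markers (median -0.22), with 0 called, and the part of tissue content in the changes of Loxl4, Fam20c and Pkdcc was not tested. Lipc, hepatic lipase, went from between 8.19 and 10.8 CPM to between 5 and 6.27 CPM, a log2 fold change of -0.76 (SE 0.15, edgeR adjusted p = 0.0114). Gprc5c, an orphan receptor of the retinoic acid-inducible group, went from 32, 34.6, 37.2 and 30.9 CPM to 23.4, 19.9, 24.4, 21.3 and 21 CPM, a log2 fold change of -0.62 (SE 0.11, edgeR adjusted p = 0.00594). Calls that ended when a library of 0-day was left out were those of Loxl4 (replicate 4), Lipc (replicates 2 and 4), Fam20c (replicates 2 and 4), Fam101a (replicate 2), Gprc5c (replicate 3) and Pkdcc (replicates 1, 2 and 3). Calls that ended when a contralateral library was left out were those of Fam20c (replicate 3), Gprc5c (replicate 2) and Pkdcc (replicates 2, 3 and 4). The highest adjusted p in these fits was 0.152, for Pkdcc, and Gprc5c fell below the fold threshold only (adjusted p up to 0.0422).

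**Figure D3:**
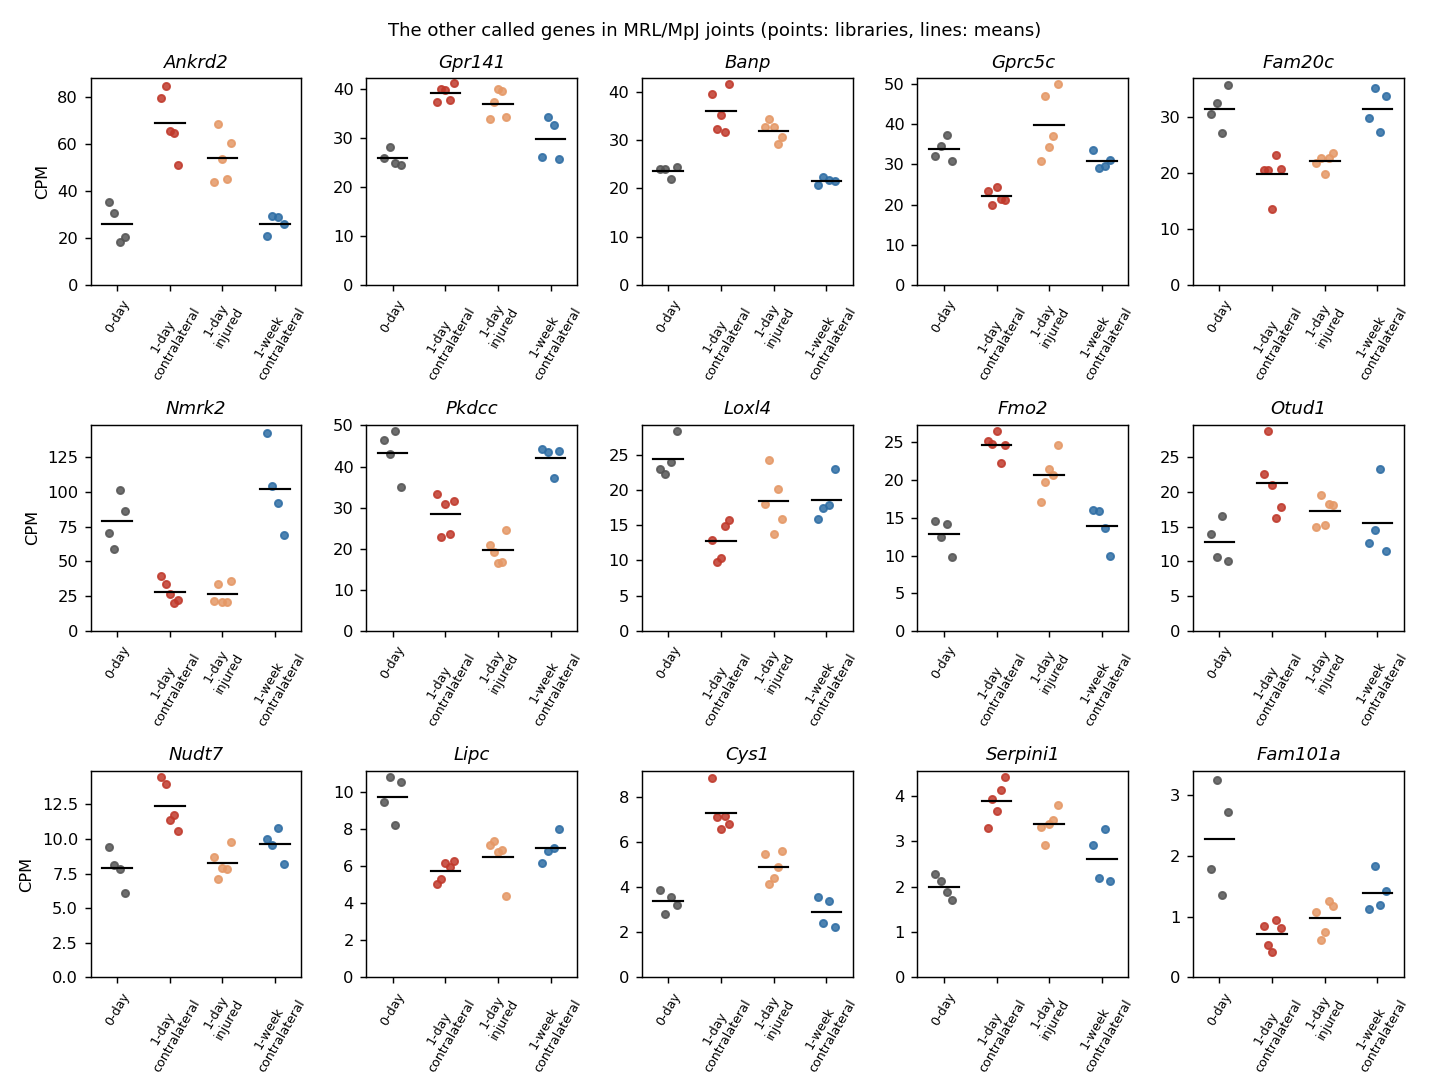
CPM of the 15 called genes outside the clock in MRL/MpJ joints at 0-day, contralateral at 1-day, injured at 1-day and contralateral at 1-week; points are libraries and lines are group means. Only Otud1 overlaps between 0-day and the contralateral joints of 1-day, and Gprc5c and Nudt7 were called between injured and contralateral joints of 1-day.

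The injured joints of the same day were set beside these values. In a test of injured minus contralateral joints, 365 genes were called, or 2.11% of all genes (1.54% higher and 0.566% lower in the injured joint), and 18 of the 20 genes were not among them. Gprc5c was one exception, with 30.8 to 49.9 CPM in the injured joints against 19.9 to 24.4 CPM in the contralateral ones (log2 difference 0.86, SE 0.10, edgeR adjusted p = 1.7e-07). Nudt7 was the other, with a mean of 8.26 CPM in the injured and 12.4 CPM in the contralateral joints (log2 difference -0.59, SE 0.11, edgeR adjusted p = 0.000506). Pkdcc had an adjusted p under 0.05 and a fold under the threshold (log2 difference -0.54, SE 0.14, edgeR adjusted p = 0.01265). Its means were 19.6 CPM in the injured and 28.4 CPM in the contralateral joints. The injured joints had means of 41.8, 25.8 and 23.8 CPM for Per1, Per2 and Per3, 50.2 CPM for Nr1d1, 9.32 CPM for Arntl, 54.2 CPM for Ankrd2 and 26.8 CPM for Nmrk2, each nearer to the contralateral joints of 1-day than to 0-day. Against 0-day, 560 genes were called in the injured joints, or 3.24%, with log2 fold changes of -1.16 (SE 0.15) for Nr1d1 and -1.56 (SE 0.27) for Nmrk2. In that comparison 10 of the 20 genes were called in the same direction. Per2, Per3, Banp, Gpr141 and Fam20c had an adjusted p under 0.05 and a fold under the threshold, and Nudt7, Cys1, Otud1, Gprc5c and Loxl4 did not pass the test (log2 fold changes of 0.04, 0.53, 0.43, 0.24 and -0.40, with edgeR adjusted p values of 0.906, 0.229, 0.109, 0.184 and 0.148). That comparison uses the same 4 libraries of 0-day as the contralateral one. At 1-week, the mean of the contralateral joints was nearer to 0-day than to 1-day, on the log scale, for 19 of the 20 genes; Nr1d1 was at 114 ± 13.6 (SD, n = 4), Nmrk2 at 102 ± 30.8 and Ankrd2 at 26.1 ± 4 CPM. Lipc was the exception, at 6.97 ± 0.758 CPM (SD, n = 4). No test was made between 1-week and the earlier time points.

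Inflammatory genes that were higher in the injured joint did not pass the test in the contralateral joint. Of 25 cytokines and chemokines, 0 were called in the contralateral joint, where 0.116% of all genes were called, with a median log2 fold change of 0.00. In injured against contralateral joints 12 of the 25 were called higher, beside 1.54% of all genes. Ccl2, which attracts monocytes, had a log2 fold change of 1.09 (SE 0.81, edgeR adjusted p = 0.729) in the contralateral joint, whereas the injured joints held 8.63 to 13.1 CPM and were higher than the contralateral ones by 3.64 on the log2 scale (edgeR adjusted p = 7.05e-09). For Ccl7, of the same chemokine family, these values were 1.30 (SE 1.2, adjusted p = 0.801) and 4.6 (edgeR adjusted p = 2.7e-09). Il6, the gene of interleukin 6, was at 0.299, 0.786, 0.171 and 0 CPM at 0-day and at 0.639, 0, 0.418, 0.173 and 0.0804 CPM in the contralateral joints, with overlap (log2 fold change -0.49, SE 0.80, edgeR adjusted p = 0.911). Injured joints were higher than contralateral ones in Il6 by 2.35 on the log2 scale (SE 0.54, edgeR adjusted p = 0.0047), and changes within the wide error of the contralateral value could not be resolved. Il1b had a log2 fold change of 0.04 (edgeR adjusted p = 0.974). Cxcl1, which attracts neutrophils, had 0 counts in the 4 libraries of 0-day and 2 to 5 counts in each contralateral joint (0.161 to 0.431 CPM), and 16 to 40 counts in each injured joint. Its edgeR adjusted p for the contralateral joint was 0.503. Ankrd1, a stress-responsive relative of Ankrd2, was at 24, 19.8, 23.5 and 20.4 CPM at 0-day and at 46.9, 44.1, 26.7, 18.2 and 18.9 CPM in the contralateral joints, against 149 to 567 CPM in the injured ones. Replicates 1 and 2 of the contralateral joints were high for Ankrd1 and the other 3 were within or near the range of 0-day (log2 fold change 0.48, SE 0.40, edgeR adjusted p = 0.769).

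Lists of genes for other responses held few calls. Beside the clock list, 17 lists of genes were read, and 15 of them had no called member. With 0.116% of all genes called, a count of 0 or 1 in a list of this size says little about the list. In the glucocorticoid list, 1 of 19 genes was called, Per1, which is also a clock gene, and the median log2 fold change was 0.09. Tsc22d3, the glucocorticoid-induced leucine zipper, did not overlap between the groups, at means of 68.5 and 100.2 CPM (log2 fold change 0.55, SE 0.15, edgeR adjusted p = 0.134), and Fkbp5, a chaperone that is a standard readout of the hormone, had a log2 fold change of 0.20 (SE 0.09, adjusted p = 0.46). Of 17 muscle atrophy genes, 1 was called, Nmrk2, and the median was 0.06. The 19 fatty acid oxidation and fasting genes had a median of 0.20, with 16 of 19 above 0 and 0 called. Their smallest edgeR adjusted p was 0.254, for Acadl, an acyl-CoA dehydrogenase. The 14 heat shock chaperones had a median of 0.09 with 13 above 0, and Dnaja1, a co-chaperone of HSP70, went from between 156 and 170 CPM to between 192 and 208 CPM (log2 fold change 0.28, SE 0.07, edgeR adjusted p = 0.0628). Srebf1, the master regulator of lipogenesis, was lower by less than the fold threshold, from between 55 and 71.1 CPM to between 44.1 and 55.8 CPM (log2 fold change -0.39, SE 0.09, edgeR adjusted p = 0.0499). The medians of the lists for lipogenesis, cholesterol synthesis, acute phase, immediate early, unfolded protein, interferon, protease, collagen, cell cycle, respiratory chain and wound response genes lay between -0.15 and 0.11, and 0 of their members were called. Members with the smallest adjusted p of their list were Il6ra (0.16), Nr4a3 (0.293), Chac1 (0.277), Fdps (0.111), Mx2 (0.58), Adamts14 (0.245), Lox (0.488), Ccne2 (0.331) and Atp5j (0.672). The 25 housekeeping genes of the study had a median of -0.07 and 0 calls, and Rps6kb1 had the smallest adjusted p of these, 0.449.

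Markers of the tissues in the joint were checked as lists, and 0 members were called in 17 lists by the fit of 42 libraries. Medians ranged from -0.38 for cartilage to 0.26 for mast cells. Of 16 cartilage markers, 15 had log2 fold changes below 0, and the summed level was 4420 to 6130 CPM at 0-day and 3250 to 5590 CPM in the contralateral joints, with overlap. The exception was Prg4, the gene of the joint lubricant lubricin, which is also made by synovium. Prg4 was at 1310, 942, 1220 and 946 CPM at 0-day and at 1860, 2140, 1270, 1900 and 1760 CPM in the contralateral joints, where only replicate 3 fell within the range of 0-day (log2 fold change 0.69, SE 0.19, edgeR adjusted p = 0.133). DESeq2 and the fit of the 9 libraries alone called Prg4 (edgeR adjusted p = 0.00857 in the latter). All 12 osteoblast and osteocyte markers had log2 fold changes below 0, with a median of -0.22 and a summed level of 7470 to 9850 against 6660 to 8770 CPM. The summed level of 15 fast muscle markers was 97500 to 123000 CPM at 0-day and 83900 to 110000 CPM in the contralateral joints (median -0.20), that of 10 slow muscle markers 1050 to 1440 and 1110 to 1340 CPM (median -0.14). Ankrd2 and Nmrk2, the muscle genes among those called, moved in opposite directions by more than these medians, and the part of muscle content in their changes was not tested. Markers of marrow neutrophils (17200 to 20200 against 18900 to 19600 CPM), erythroid cells (6730 to 7970 against 6540 to 7990 CPM), B cells, T cells and macrophages had medians between -0.02 and 0.09. Fat, tendon, endothelium, Schwann cell and synovial markers had medians between -0.05 and 0.11, and osteoclast markers had a median of -0.20. Skin keratinocyte markers were low in both groups (11.7 to 15.2 and 9.8 to 13 CPM for the 5 of 10 markers in the table). No marker was at 0 in all libraries of a group. The smallest adjusted p in the marker lists was 0.133, for Prg4, and members that led other lists were Casq1 (0.449), Tnnc1 (0.752), Cxcr2 (0.662), Blnk (0.505), Cd3g (0.684), Marco (0.455), Ms4a2 (0.572), Bglap (0.355), Atp6v0d2 (0.446), Lep (0.566), Krt10 (0.482), Mkx (0.577), Kdr (0.255) and Ncmap (0.51).

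Whether the contralateral joint of another strain changed in a different way was tested by the difference of the changes, (1-day minus 0-day in MRL/MpJ) minus (1-day minus 0-day in C57BL/6J). That difference was called for 12 genes, or 0.0693% of all genes, 9 higher (0.052%) and 3 lower (0.0173%) in MRL/MpJ. Nmrk2 led the lower ones. It fell from 79.2 to 28.3 CPM in MRL/MpJ, and its means in C57BL/6J were 49.4 and 94.4 CPM, a difference of -2.42 (SE 0.38, edgeR adjusted p = 0.00204). Ankrd2 was the other gene of the 20 for which the difference was called (1.83, SE 0.40, edgeR adjusted p = 0.0443), with means of 21.1 and 15.4 CPM in C57BL/6J. In the list of fatty acid oxidation and fasting genes, 4 of 19 were called higher in this difference, beside 0.052% of all genes. Pdk4, the kinase that shuts glucose carbon out of the mitochondrion, was at 99.5, 74.5, 138 and 124 CPM at 0-day and at 210, 205, 140, 134 and 96.3 CPM in MRL/MpJ contralateral joints, and its means in C57BL/6J were 141 and 42.2 CPM. Its change was 0.53 in MRL/MpJ and -1.75 in C57BL/6J, a difference of 2.28 (edgeR adjusted p = 0.01). Plin5, a lipid droplet protein, had changes of 0.75 and -1.44 (difference 2.20, adjusted p = 0.0424), and Cpt1a, which admits fatty acids to mitochondria, of 0.25 and -0.48 (difference 0.73, adjusted p = 0.0442). In MRL/MpJ none of these 3 was called in its own right. On the other side, Srebf1 (-0.39 and 0.22, difference -0.61, adjusted p = 0.0442) and Acsl3, an acyl-CoA synthetase (-0.41 and 0.33, difference -0.75, adjusted p = 0.0323), were lower in MRL/MpJ relative to C57BL/6J. C1qtnf3 had the largest difference, 2.69 (edgeR adjusted p = 0.00313), with 4.61 to 7.56 CPM at 0-day and 5.54 to 7.87 CPM in the contralateral joints of MRL/MpJ and a change of -2.67 in C57BL/6J. Fbn2 and Postn, which encode matrix proteins, likewise differed through changes of -1.25 and -0.71 in C57BL/6J beside -0.03 and 0.16 in MRL/MpJ, and Mfsd7b had changes of 0.41 and -0.18. Pdk4 and Nmrk2 were called in 8 of 8 other processings and in 18 of 18 fits with a library left out, and C1qtnf3 in 7 of 8 and 18 of 18. The other genes were less stable: Ankrd2, Cpt1a, Fbn2, Srebf1 and Mfsd7b were called in 3 to 5 of these 18 fits, Plin5 and Postn in 7 and Acsl3 in 9. Mfsd7b was called in 2 of the 8 other processings, Fbn2, Srebf1 and Acsl3 in 6, and Ankrd2, Cpt1a, Plin5 and Postn in 7. The count moved from 12 to between 4 and 14 with a library left out and to between 4 and 59 under other processings.

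**Figure D4:**
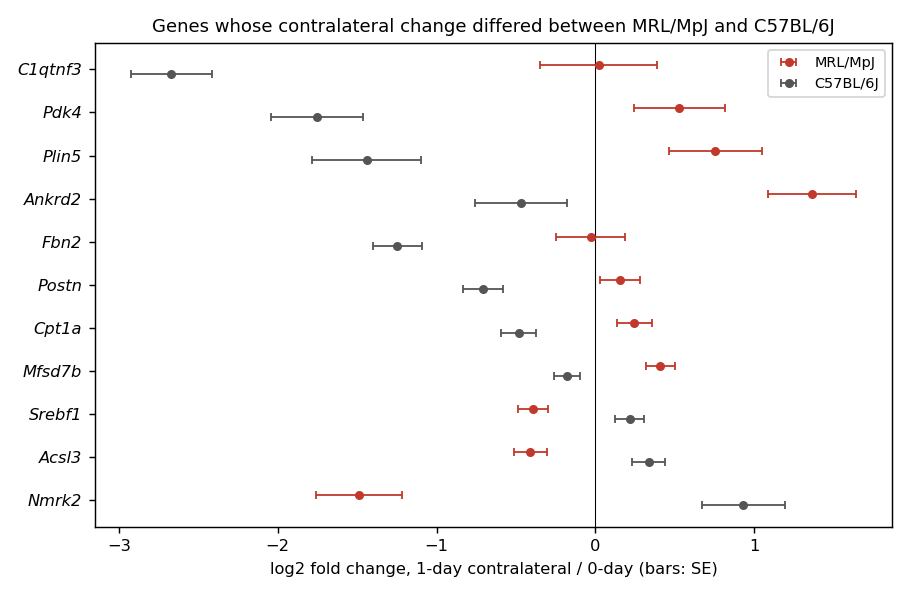
Log2 fold change of 1-day minus 0-day contralateral joints, with SE, in MRL/MpJ and in C57BL/6J for 11 of the 12 genes whose changes differed. Pdk4, Plin5 and Ankrd2 are above 0 in MRL/MpJ and below 0 in C57BL/6J, and Nmrk2 is at -1.49 in MRL/MpJ and 0.93 in C57BL/6J.

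For the clock genes the difference from C57BL/6J was not called. In C57BL/6J itself 18 genes were called (0.104%), and 0 of the 20 MRL/MpJ genes were among them, while 13 of the 20 had the same sign. Nr1d1 came closest to a call of the difference, with means of 92.6 and 87.7 CPM in C57BL/6J (log2 fold change -0.08) and a difference of -0.98 (SE 0.22, edgeR adjusted p = 0.0508). The changes of Per1, Per2 and Per3 in C57BL/6J were 0.19, 0.27 and 0.46, that of Arntl -0.43, and the differences from MRL/MpJ had edgeR adjusted p values of 0.434, 0.294, 0.807 and 0.772. Npas2 was called in C57BL/6J, with a log2 fold change of -1.28 (edgeR adjusted p = 0.0286), beside -1.16 in MRL/MpJ.

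**Figure D5:**
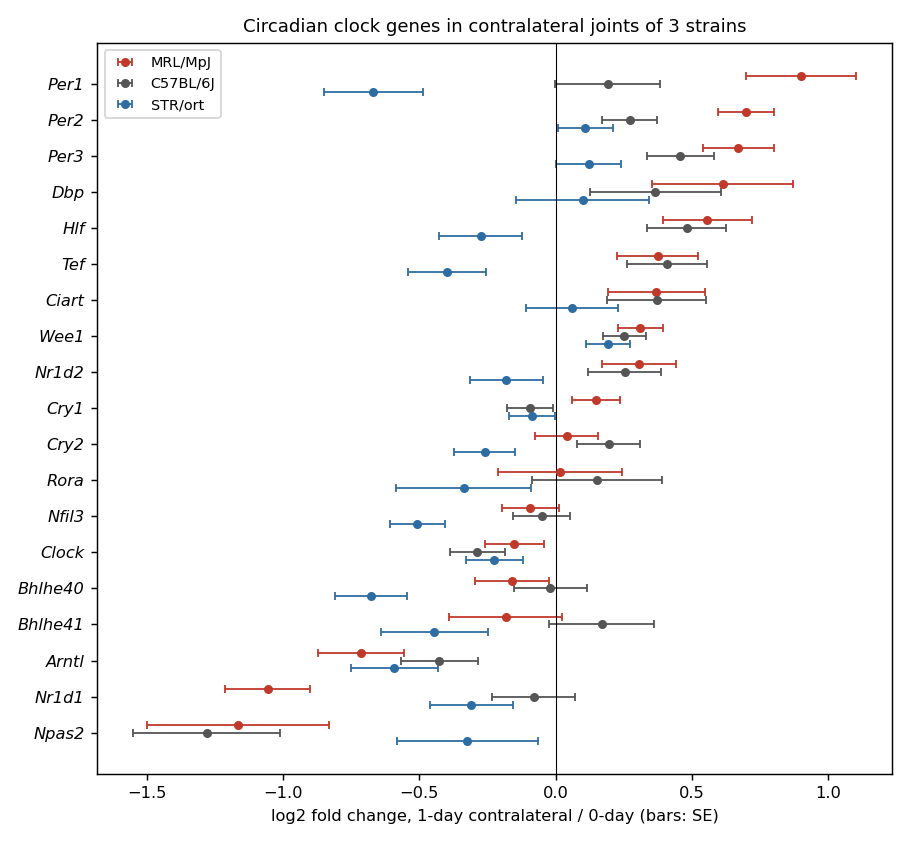
Log2 fold change of 1-day minus 0-day contralateral joints, with SE, for 19 clock genes of each strain (MRL/MpJ, C57BL/6J, then STR/ort). Arntl and Npas2 are below 0 in MRL/MpJ and C57BL/6J, and Per1 is at 0.90 in MRL/MpJ, at -0.67 in STR/ort and at 0.19 in C57BL/6J.

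In STR/ort the contralateral joint differed from 0-day in far more genes, 1721 or 9.94%, and the difference between the changes of MRL/MpJ and STR/ort was called for 1313 genes (7.59%), 899 higher (5.19%) and 414 lower (2.39%) in MRL/MpJ. This count fell to 89 and 142 when 1 or 2 factors of unwanted variation were removed, and it was between 1302 and 1350 under the other processings. Most of these calls therefore depend on whether such factors are removed. Of the 20 MRL/MpJ genes, 13 were called in that difference. Per1 was at means of 89.5 and 55.6 CPM in STR/ort, opposite to MRL/MpJ, with a difference of 1.57 (SE 0.27, edgeR adjusted p = 0.000202). Per2 (difference 0.59, adjusted p = 0.00444) and Nr1d1 (difference -0.75, adjusted p = 0.016) were called too, with means of 17.4 and 18.5 CPM and of 95 and 75.8 CPM in STR/ort. The difference of Per2, just over the fold threshold, was called in 11 of 18 fits with a library left out. With factors of unwanted variation removed, Per1 and Per2 were not called (adjusted p of up to 0.056 and 0.314), and with housekeeping scaling Nr1d1 was not called (0.065). Arntl fell in both strains, by 0.59 in STR/ort (edgeR adjusted p = 0.00412), and its difference was -0.12 (adjusted p = 0.77). For Nmrk2, STR/ort means went from 48.5 to 9.4 CPM, and the difference from MRL/MpJ was 0.86 (SE 0.41, edgeR adjusted p = 0.148). Serpini1, Nudt7, Otud1, Fam101a and Lipc kept the call of this difference in 8 of 8 other processings and in 18 of 18 fits with a library left out. In Otud1 the change was 0.73 in MRL/MpJ and -0.96 in STR/ort (difference 1.68, SE 0.22, edgeR adjusted p = 3.62e-06), and in Fam101a it was -1.66 and 1.13 (difference -2.79, SE 0.41, edgeR adjusted p = 3.12e-05). Among the lists, 5 of 20 clock genes were called higher in this difference and 1 lower, beside 5.19% and 2.39% of all genes. Higher calls also came from 17 of 24 respiratory chain, 14 of 20 immediate early, 14 of 19 fatty acid oxidation and fasting, 9 of 14 heat shock and 8 of 19 glucocorticoid genes. Fast muscle markers moved with them, with 8 of 15 called higher and a median log2 fold change of -1.1 in STR/ort beside -0.20 in MRL/MpJ, and the part of muscle content in these counts was not tested. Lower calls, beside 2.39% of all genes, came from 6 of 13 macrophage, 5 of 12 osteoblast and osteocyte, 3 of 9 osteoclast, 3 of 16 cartilage, 3 of 13 B cell, 4 of 24 collagen and fibroblast matrix and 4 of 25 protease genes, and the part of tissue content in this difference was not tested either.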

How the data were processed

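Total RNA of whole knees was sequenced as poly(A) libraries. The authors used TopHat2 (version 2.0.11) for alignment to mm10 and featureCounts for counting on RefSeq genes. The deposited values are raw counts per gene and library. Per the labels, the libraries used here belong to 1 sequencing batch, and the 2-weeks libraries of the other batch were not used.

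The table lists 17313 genes; 3 repeated entries were dropped, and 24 names had been turned into dates by a spreadsheet. The 42 libraries of 0-day and 1-day (9 groups, 6182016 to 20986027 counts each) entered 1 quasi-likelihood fit of edgeR (version 4.0.16, R 4.3.3) with TMM factors and no low-count filter, since every listed gene already has at least 2 counts in at least 5 libraries of the series. Differences between strains are contrasts of the same fit. Fold changes used edgeR's fitted coefficients, and levels are CPM with TMM factors over 70 libraries of the batch. Each SE was derived from a fold change and its F statistic. The authors normalized with RUVSeq and 25 housekeeping genes for an unstated number of factors, so RUVg was an alternative here. Promoters and gene positions are those of RefSeq (GRCm38.p6), and exon overlaps came from GENCODE.

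The comparison and the gene lists were chosen with earlier results of these data known. Genes named are the called ones with a mean of at least 1 CPM (up to 12 per direction by adjusted p), the list members of smallest adjusted p, and in each direction of the strain differences the called gene leading by adjusted p, and also Il6, Ccl2, Ccl7, Cxcl1, Il1b and Ankrd1. Other members of the clock and glucocorticoid lists and the further genes of the C57BL/6J difference were named after their values were seen. Alternatives were RLE factors, housekeeping scaling, RUVg with 1 or 2 factors, DESeq2 (version 1.42.0), filterByExpr, the filter of the study, fits of 9 and of 70 libraries, a replicate block, and each library left out in turn. Leaving out the libraries of other groups, and a fit of the 10 joints of 1-day, were added after the data had been seen. Of 16 pairs of libraries within the groups, 0 were identical. A few genes that these rules give are not reported here.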

Additional observations from a re-analysis of the deposited data

Results flagged for a closer look

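Single libraries stood apart from the others of their group, by Dixon's criterion, in 8 of 116 groups examined (58 named genes in the 0-day and contralateral groups), and chance alone gives about 1 in 20. At 0-day these were Banp in replicate 3 (22 CPM against 23.9 to 24.3 in the others), Mx2 in replicate 2 (2.47 against 1.02 to 1.19), Tnnc1 in replicate 1 (27 against 6.63 to 10), Lep in replicate 1 (21.7 against 11.3 to 12.9) and Cd3g in replicate 3 (5.63 against 4.68 to 4.83). In the contralateral joints they were Cys1 in replicate 1 (8.84 CPM against 6.59 to 7.16), Fam20c in replicate 3 (13.6 against 20.5 to 23.3) and Dnajb1 in replicate 5 (54.2 against 45.1 to 47.7).

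The change of the contralateral joint differed between MRL/MpJ and C57BL/6J, by edgeR's test of the difference itself, for 12 genes. Among the genes named by rule these were Ankrd2 (log2 difference 1.83), C1qtnf3 (2.69), Srebf1 (-0.61) and Nmrk2 (-2.42).

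Against STR/ort the change differed for 1313 genes. Of the 20 called genes, Fmo2 (1.09), Per2 (0.59), Serpini1 (1.13), Banp (0.67), Nudt7 (1.09), Ankrd2 (1.79), Per1 (1.57), Otud1 (1.68), Nr1d1 (-0.75), Fam101a (-2.79), Loxl4 (-1.3), Lipc (-1.44) and Fam20c (-0.78) were among them. Of the other named genes, Nr4a3 (3.91), Chac1 (2.49), Mx2 (1.66), Dnajb1 (1.5), Acadl (1.32), Dnaja1 (0.96), Blnk (-0.69), Adamts14 (-0.71), Lox (-0.8), Bglap (-0.93) and Atp6v0d2 (-1.07) were. With RUVg of 1 and of 2 factors the call was lost for Fmo2, Per2, Banp, Ankrd2, Per1, Fam20c, Chac1, Blnk, Adamts14, Lox, Bglap, Atp6v0d2 and Cxcl1, and Chac1 fell to as low as 0.61 and Ankrd2 to 0.89. Loxl4 lost it with 1 factor, and Nr1d1 with housekeeping scaling. Dnaja1 stood at 305 to 363 CPM in STR/ort joints of 0-day and at 181 to 217 CPM in their contralateral joints, whereas MRL/MpJ joints held 156 to 208 CPM throughout. Cxcl1 was called as well with a fitted difference of 7.56, which depends on the prior count because the 4 MRL/MpJ libraries of 0-day hold 0 counts of it.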

How the results depend on the processing

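Per2, Per3, Fmo2, Nr1d1 and Nmrk2 were called in all 19 alternatives tried on the contralateral comparison. Over the 20 called genes and 19 alternatives, 306 of 380 results were on the same side of the threshold and 74 lost the call with the same direction. The count of 20 genes became 33 (14 higher, 19 lower) with RUVg and 1 factor, 38 (15 and 23) with 2 factors, 29 (15 and 14) with DESeq2, and 56 (26 and 30) in a fit of the 9 libraries alone, which held all 20. In the fit of 70 libraries it was 16, with 7 higher, and the calls of Per1, Ankrd2, Cys1, Otud1, Gpr141 and Pkdcc were lost. Housekeeping scaling lost the calls of Otud1, Gprc5c and Pkdcc, and DESeq2 lost that of Fam101a. With the replicate number as a block in the 9-library fit the count was 77 (33 higher, 44 lower), 17 of them among the 20. The numbers do not pair these joints, which come from different animals: the correlation of the deviations of same-numbered libraries was -0.341 to 0.232, over 0.1 in 3 of 4 pairs. For injured and contralateral joints it was -0.357 to 0.419, over 0.1 in 3 of 5 pairs, and a 10-library fit called 402 genes with the replicate block and 406 without.

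The difference from C57BL/6J had 23 genes with housekeeping scaling (22 higher, 1 lower, against 9 and 3), 21 and 59 with RUVg (11 higher and 10 lower, 23 and 36), 22 with DESeq2 and 4 in 70 libraries. That from STR/ort had 89 and 142 with RUVg (48 higher and 41 lower, 53 and 89), and 1337 with housekeeping scaling (1128 higher, 209 lower). With 1 library left out, the counts were 9 to 17 for the contralateral comparison (4 to 10 higher, 5 to 10 lower), 4 to 14 for the difference from C57BL/6J, 999 to 1565 for that from STR/ort, 269 to 439 for injured minus contralateral and 443 to 679 for injured minus 0-day. The cause of these moves was not tested. The median log2 fold change of all genes stayed within 0.1 of 0 under every scaling.

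Signs turned only in uncalled genes, near 0 except for Il6 (-0.49 with all libraries). C1qtnf3 was at -0.015 and -0.037 with RUVg, at -0.072 with the block, and between -0.107 and 0.161 with a library left out (-0.071 in a second fit below 0). Cry2 was at -0.004 and -0.015 with RUVg and between -0.001 and 0.105 with a library left out, and Rora at -0.056 and -0.081 with RUVg and between -0.165 and 0.136 with one left out (-0.028 and -0.009 in the others below 0). Fbn2 was at 0.012 with housekeeping scaling and between -0.148 and 0.085 with a library left out (0.049 and 0.053 in the others above 0), Il6 between -1.06 and 0.44, and Il1b between -0.078 and 0.114 (-0.071 in a second fit below 0). Calls were gained in 11 results of named genes that were not called: Prg4 with DESeq2 and both 9-library fits, Dbp and Chac1 in both 9-library fits, Plin5 with the block, Npas2 with DESeq2 and Casq1 with RUVg and 2 factors were among them. Depth limits genes such as Cxcl1 and Il6, with 0 to 7 counts per library in the groups compared.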
